A study of Homo sapiens with 74 samples.

Results

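The snoRNA host genes described here are long non-coding RNA (lncRNA) genes that carry small nucleolar RNAs (snoRNAs) in their introns. They were taken from GENCODE 44 on hg38 as all genes whose symbol is SNHG followed by a digit, together with GAS5, DANCR and EPB41L4A-AS1. This gave 31 genes, all annotated as lncRNA, of 18866 lncRNA genes in all. SNHG33 stands in the annotation as LINC00888 and was not among them. Each gene was searched for Cut&Run peaks within 1 kb of any of its annotated transcription start sites (TSSs), measured from the edge of the peak.

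In a host gene the transcript is spliced, the intron is trimmed by exonucleases and the snoRNA survives inside a protein shell. C/D box snoRNAs (SNORD) guide ribose methylation and H/ACA box snoRNAs (SNORA) guide pseudouridylation, mostly of ribosomal RNA, while scaRNAs act on spliceosomal RNAs in Cajal bodies. The spliced exons of several hosts, GAS5 among them, are short-lived and are removed by nonsense-mediated decay (NMD).

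In Cut&Run, a nuclease tethered through an antibody cuts the chromatin of permeabilised cells, and the DNA freed around the tagged protein is sequenced. Zinc-finger proteins (ZFPs) with a C-terminal V5 tag were expressed from plasmids under the EF1-alpha promoter in HEK293T, an established line of human embryonic kidney cells. Cells were taken 48 h after transfection and the V5 antibody was used, and un-transfected HEK293T cells put through the same V5 procedure were the mock IP control. The tagged proteins came from plasmids and not from their native genes, and Cut&Run records indirect contacts with DNA as well as direct ones. The data comprised 72 peak lists, from 2 biological replicates of each of 36 ZFPs, with 92122 peaks in all. The lists held between 15 and 8702 peaks with a median of 631, and no list of the mock IP cells was used. The fold given for a peak is the authors' ratio of the library over its mock IP at the summit.

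Some lists stood apart. In the second replicates of TRIM55 (3244 peaks) and ZMAT5 (2191 peaks) the fold was 2.00 at the 10th, 50th and 90th percentile of the list, whereas the median fold of the other 70 lists lay between 3.16 and 15.88. As a check of the labels, 32 of the 36 ZFPs had a peak on an exon of their own gene in both lists, where the plasmid's ORF also maps. U2AF1 and ZMAT5 had none in either list, MBNL1 had none in replicate 1 and TRIM55 had none in replicate 2. The U2AF1 sequence has a near-identical copy elsewhere on its chromosome in hg38, between which reads may be split or dropped, so its missing peak says little about the label. The lists labelled U2AF1 held no peak within 1 kb of a host gene's TSS.

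Of the 31 host genes, 26 (83.9%) had a peak within 1 kb of a TSS in at least 1 of the 72 lists. The same was true of 55.8% of 20046 protein-coding genes and of 20.3% of all lncRNA genes. When a peak was asked for in both replicates of the same ZFP, 6 host genes (19.4%) remained, against 16.7% of protein-coding genes and 5.09% of lncRNA genes. By the looser count the host genes stood above both backgrounds, and by the stricter count they were close to the protein-coding genes. A host gene was called in a median of 2.00 lists, a protein-coding gene in 1.00 and an lncRNA gene in 0. Without the second lists of TRIM55 and ZMAT5, 23 host genes (74.2%) were called, because SNHG6, SNHG17 and SNHG27 had peaks in these lists alone. With only the 30 ZFPs that have a Cut&Run count in the study's summary table, 23 host genes (74.2%) were called, against 54.4% of protein-coding genes.

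**Figure D1:**
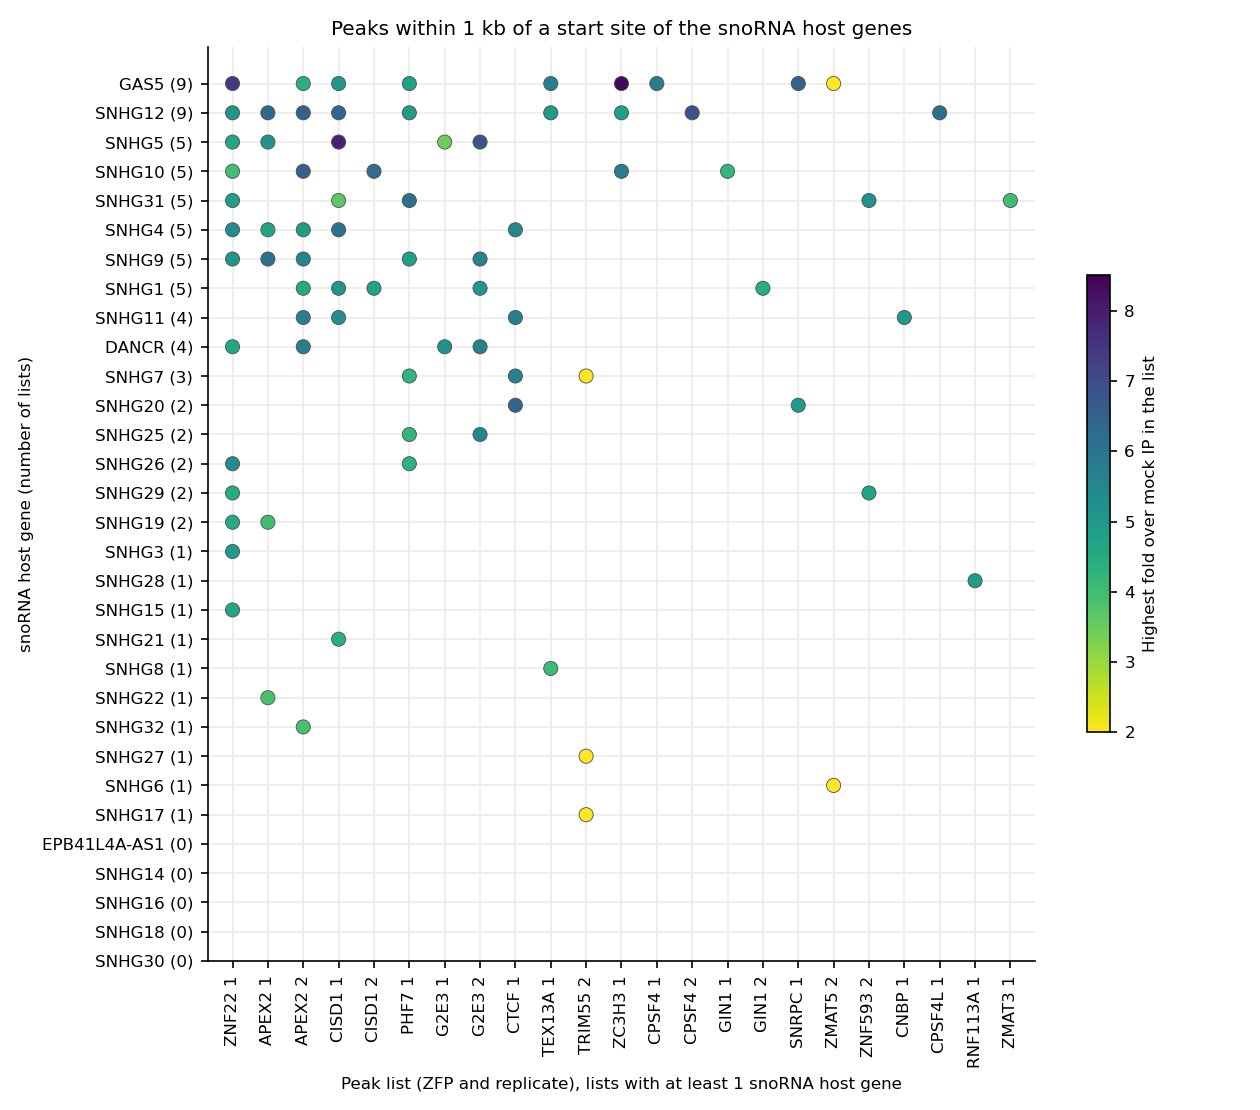
Each dot is a gene with at least 1 peak within 1 kb of a TSS in a list. The 31 snoRNA host genes are rows, the 23 lists that held at least 1 of them are columns, and colour gives the gene's highest fold over mock IP in the list. GAS5 and SNHG12 were called in 9 lists each, 5 genes were called in none, and the dots at folds of 1.99 to 2.00 belong to the second lists of TRIM55 and ZMAT5.

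GAS5 and SNHG12 were called most often, in 9 lists each. SNHG5, SNHG10, SNHG31, SNHG4, SNHG9 and SNHG1 followed with 5 lists each, SNHG11 and DANCR with 4, and SNHG7 with 3. SNHG19, SNHG20, SNHG25, SNHG26 and SNHG29 were called in 2 lists each. SNHG3, SNHG8, SNHG15, SNHG21, SNHG22, SNHG28 and SNHG32 were called in 1 list each, as were SNHG6, SNHG17 and SNHG27 at folds of 1.99 to 2.00. No list held a start-site peak of EPB41L4A-AS1, SNHG14, SNHG16, SNHG18 or SNHG30. SNHG14 is the very long host of the imprinted snoRNA clusters of the Prader-Willi region, and none of its 111 annotated TSSs had a peak within 1 kb.

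For host genes called often, the stretch of hg38 that the most lists covered is printed below, so that the place shared by peaks of different ZFPs can be read. Each run is written along the strand of the host gene, 5′ to 3′, and capitals mark the GC box word GGGCGG or the CCAAT box word CCAAT on either strand. Where a stretch ran into an untranslated exon of a neighbouring protein-coding gene, only the longest piece outside it is shown.
GAS5, chr1:173868406-173868523, minus strand: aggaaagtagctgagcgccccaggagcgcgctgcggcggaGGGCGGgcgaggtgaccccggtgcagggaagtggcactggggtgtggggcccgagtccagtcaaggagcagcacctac
SNHG12, chr1:28581661-28581768, minus strand: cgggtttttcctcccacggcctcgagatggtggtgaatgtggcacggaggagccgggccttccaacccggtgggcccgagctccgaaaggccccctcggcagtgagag
SNHG5, chr6:85678974-85679160, minus strand: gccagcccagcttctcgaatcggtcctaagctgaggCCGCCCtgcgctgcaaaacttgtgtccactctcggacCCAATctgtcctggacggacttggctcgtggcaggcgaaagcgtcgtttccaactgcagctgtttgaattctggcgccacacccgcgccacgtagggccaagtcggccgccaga
SNHG31, chr2:214809876-214810070, plus strand: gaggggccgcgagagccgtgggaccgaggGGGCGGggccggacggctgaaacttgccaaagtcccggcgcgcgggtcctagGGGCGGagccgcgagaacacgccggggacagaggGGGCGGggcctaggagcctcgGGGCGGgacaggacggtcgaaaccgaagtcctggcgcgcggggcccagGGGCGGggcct
DANCR, chr4:52712242-52712370, plus strand: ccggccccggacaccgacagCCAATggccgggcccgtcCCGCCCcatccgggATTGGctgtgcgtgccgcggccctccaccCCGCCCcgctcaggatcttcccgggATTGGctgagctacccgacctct

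The stretch of GAS5 measured 170 bp and was covered in 8 of its 9 lists. That of SNHG12 measured 108 bp and was also covered in 8 of 9, those of SNHG5 (187 bp) and SNHG31 (195 bp) in 4 of 5, and that of DANCR (129 bp) in 3 of 4. The GC content of these stretches was between 62.0% for SNHG5 and 76.9% for SNHG31. The SNHG31 stretch held 5 GC boxes, the DANCR stretch held 2 GC boxes and 3 CCAAT words, and the SNHG12 stretch held none of the 8 words searched. SNHG9 and SNHG1 had a stretch that all 5 of their lists covered, of 37 bp and 66 bp. Both stretches lay wholly in an untranslated exon of the neighbouring gene, RPS2 and SLC3A2 respectively, and are not printed.

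GAS5, the growth arrest-specific transcript, lies at chr1:173858559-173868882 on the minus strand and holds 10 C/D box snoRNAs and 1 H/ACA box snoRNA in the annotations used. Its peaks had folds of 8.36 in ZC3H3 replicate 1, 7.41 in ZNF22 replicate 1, 6.45 in SNRPC replicate 1, 5.74 in CPSF4 replicate 1, 5.67 in TEX13A replicate 1, 5.04 in CISD1 replicate 1, 4.80 in PHF7 replicate 1, 4.43 and 4.27 for a pair of peaks in APEX2 replicate 2, and 2.00 in ZMAT5 replicate 2. The 9 lists belonged to 9 different ZFPs, so GAS5 was called in both replicates of none. Of these ZFPs, ZC3H3, SNRPC, CPSF4 and ZMAT5 have no Cut&Run count in the study's summary table. ZBTB37, a zinc-finger gene on the opposite strand, has a TSS 87 bp from one of GAS5, and its start sites were called in the same 9 lists. The ZMAT5 peak also covered SNORD74 in the GAS5 body and was the only GAS5 peak on a snoRNA gene.

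SNHG12, on the minus strand of the same chromosome, holds SNORA16A, SNORA44, SNORA61 and SNORD99, and no protein-coding TSS lies within 1 kb of its own. Its folds were 6.36 and 6.47 in APEX2 replicates 1 and 2, 6.41 in CISD1 replicate 1, 6.12 in CPSF4L replicate 1, 5.09 in ZNF22 replicate 1, 4.96 in TEX13A replicate 1, 4.93 in PHF7 replicate 1, 4.83 in ZC3H3 replicate 1, and 6.84 and 4.82 for a pair of peaks in CPSF4 replicate 2. The folds thus lay within a narrow range in lists of 8 ZFPs. Most of these calls rested on annotated start sites inside the gene, since with only the 5′ end of each gene as TSS SNHG12 was called in 2 lists and in both replicates of no ZFP, whereas GAS5 was still called in 9. The APEX2 peaks overlapped by 440 bp, the most of any host gene called in both replicates. GAS5 and SNHG12 were called together in 6 lists, which was the highest number of any pair of host genes.

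SNHG5, SNHG4, SNHG9, SNHG1 and DANCR were the other host genes called in both replicates of a ZFP. SNHG5, the host of SNORD50A and SNORD50B, had folds of 3.45 and 6.77 in G2E3 replicates 1 and 2, 7.92 and 4.55 for a pair of peaks in CISD1 replicate 1, 5.1 in APEX2 replicate 1 and 4.63 in ZNF22 replicate 1. Its G2E3 peaks overlapped by 193 bp, although 1 of them had the lowest fold of the gene and the other the second highest. G2E3 is a ubiquitin ligase with PHD-type zinc fingers.

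DANCR, which holds SNORA26 and is known as a lncRNA that holds back differentiation, had folds of 5.18 and 5.70 in G2E3 replicates 1 and 2, 5.73 in APEX2 replicate 2 and 4.6 in ZNF22 replicate 1. The G2E3 peaks overlapped by 175 bp, and all 4 peaks covered a TSS. No protein-coding TSS lies within 1 kb of DANCR, so of the 6 host genes called in both replicates only DANCR and SNHG12 do not share their start region with a protein-coding gene, and the call of SNHG12 is lost with the 5′ end as the only TSS.

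SNHG9, the host of SNORA78, had folds of 6.04 and 5.57 in APEX2 replicates 1 and 2, 5.55 in G2E3 replicate 2, 5.09 in ZNF22 replicate 1 and 4.80 in PHF7 replicate 1. Its APEX2 peaks overlapped by 217 bp. SNHG4, the host of SNORA74A and SNORA74D, had folds of 4.67 and 4.91 in APEX2 replicates 1 and 2, 6.06 in CISD1 replicate 1, 5.50 in CTCF replicate 1 and 5.37 in ZNF22 replicate 1. Here the APEX2 peaks did not overlap but lay 4 bp apart, so the gene was called in both replicates through neighbouring peaks. APEX2 is an endonuclease of base excision repair with a zinc finger at its end, and it called SNHG4, SNHG9 and SNHG12 in both lists.

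SNHG1, the host of SNORD22 and SNORD25 to SNORD31, was called in 5 lists, of which 4 were second replicates. Its folds were 5.11 and 4.71 in CISD1 replicates 1 and 2, 4.99 in G2E3 replicate 2, 4.55 in APEX2 replicate 2 and 4.45 in GIN1 replicate 2. The CISD1 peaks overlapped by 152 bp, and CISD1, an iron-sulfur protein of the outer mitochondrial membrane, called no other host gene in both replicates. The summits of all 5 SNHG1 peaks lay within 47 bp of a TSS of SLC3A2, the heavy chain of an amino acid transporter, and SLC3A2 was itself called in 20 lists.

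SNHG10, which holds the scaRNA SCARNA13, had folds of 6.5 in APEX2 replicate 2, 6.23 in CISD1 replicate 2, 5.79 in ZC3H3 replicate 1, 4.23 in GIN1 replicate 1, and 3.97 and 3.78 for a pair of peaks in ZNF22 replicate 1. No more than 2 lists covered the same stretch, so its peaks were spread over the region shared with GLRX5. SNHG31 had folds of 6.12 in PHF7 replicate 1, 5.16 in ZNF593 replicate 2, 4.83 in ZNF22 replicate 1, 4.0 in ZMAT3 replicate 1 and 3.66 in CISD1 replicate 1. BARD1, the partner of BRCA1, starts 498 bp from SNHG31 at the closest and was called in the same 5 lists.

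SNHG11, the host of SNORA60 and SNORA71E, had folds of 5.74 in CTCF replicate 1, 5.73 in APEX2 replicate 2, 5.30 in CISD1 replicate 1 and 5.00 in CNBP replicate 1. All 4 of its peaks covered a TSS, and the 4 lists belonged to 4 ZFPs. SNHG11 has 33 annotated TSSs over 3026 bp, and its peaks began downstream of its 5′ end. With the 5′ end as the only TSS it was still called in 4 lists. SNHG7, the host of SNORA17A and SNORA17B, had folds of 5.67 in CTCF replicate 1, 4.25 in PHF7 replicate 1 and 2.00 in TRIM55 replicate 2. SNHG20, the host of SCARNA16, had folds of 6.38 in CTCF replicate 1 and 4.97 in SNRPC replicate 1, at adjoining peaks that did not overlap. CTCF, the insulator protein, was therefore called at start sites of SNHG4, SNHG7, SNHG11 and SNHG20 in its first replicate, which called 10.9% of protein-coding genes, and at no host start site in its second, which called 6.10%.

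The 31 host genes formed 73 gene-ZFP pairs, counting a ZFP once when either replicate had a peak. Both replicates held the peak in 6 of the pairs (8.22%), compared with 16.5% of the 40581 pairs of protein-coding genes and 16% of the 12379 pairs of lncRNA genes. Of the 79 pairs of a gene and a list, 54 came from first replicates and 25 from second replicates. Most single calls at host genes were thus made in 1 replicate only, and the share seen in both was lower than the share over all genes. This difference was not tested.

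ZNF22 called the most host genes, 13 in its joined lists, beside 25.8% of protein-coding and 8.18% of lncRNA genes. All 13 came from replicate 1 (6125 peaks), and replicate 2 held none although it had 1836 peaks and called 6.66% of protein-coding genes. APEX2 called 12 host genes, 6 in replicate 1 and 9 in replicate 2, beside 27.0% of protein-coding and 8.62% of lncRNA genes. CISD1 called 9, of which 8 were in replicate 1 and 2 in replicate 2, beside 27.6% and 8.82%. As shares of the 31 genes these counts were 41.9%, 38.7% and 29.0%. ZNF22 and APEX2 lay above the protein-coding share of the same lists, and CISD1 differed from it by less than 1 host gene (3.23%).

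PHF7 called 7 host genes, all in replicate 1, beside 23.5% of protein-coding and 7.70% of lncRNA genes. G2E3 called 5 beside 21.6% and 6.82%, and CTCF called 4 beside 13.5% and 4.29%. TEX13A called 3 beside 7.15% and 2.27%, and ZC3H3 called 3 beside 4.14% and 1.34%. TRIM55 also called 3, beside 2.39% and 0.774%, all of them in the list with a uniform fold of 2.00. G2E3, at 16.1% of the host genes, was below its own protein-coding share. PHF7 and CTCF, at 22.6% and 12.9%, differed from theirs by less than 1 host gene.

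CPSF4, GIN1, SNRPC, ZMAT5 and ZNF593 called 2 host genes each (6.45%), beside 8.11%, 13.9%, 4.72%, 1.18% and 2.61% of protein-coding genes in that order. CNBP, CPSF4L, RNF113A and ZMAT3 called 1 each (3.23%), beside 0.259%, 0.653%, 4.68% and 5.30%. The other 18 ZFPs called none, and these had 419 to 1652 peaks in their joined lists and called between 0.0848% and 1.31% of protein-coding genes. In 11 of the 18 ZFPs with a host gene, the share of host genes was above the share of protein-coding genes. This was fixed in advance where the protein-coding share was below 3.23%, the least that 1 host gene can give. The 18 ZFPs without a host gene all lay below their protein-coding share, which was likewise fixed, since each called some protein-coding genes. The 5 ZFPs with the most host genes supplied 63.0% of the host gene pairs and 62.0% of the protein-coding pairs, with 47.6% of all peaks. Summed over these 5 ZFPs the shares of pairs were thus close, while single ZFPs lay above or below their protein-coding share. Sequencing depth and batch could not be set beside these counts, since the sources used here do not state them per library.

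**Figure D2:**
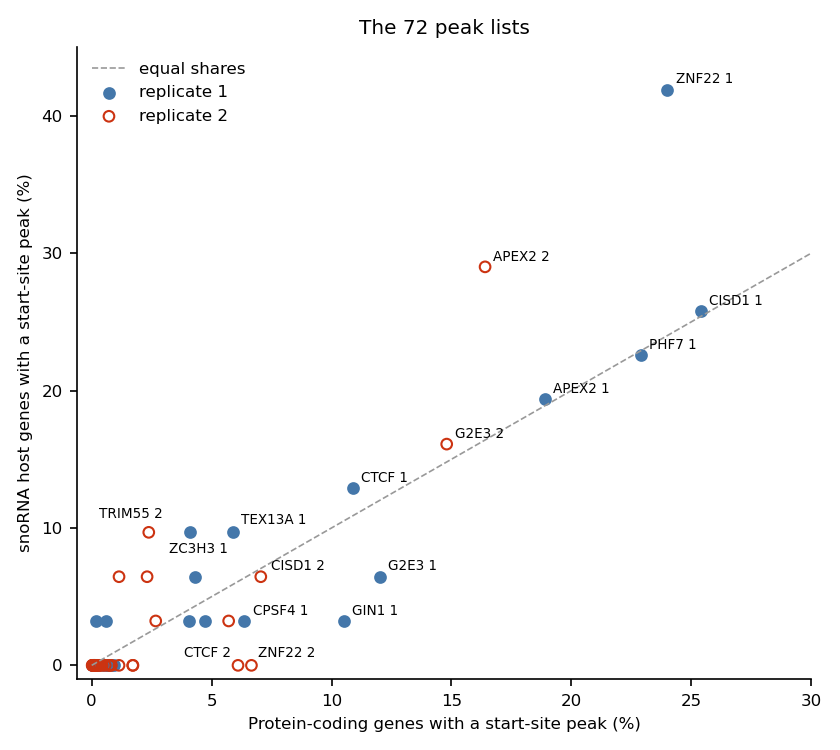
Each point is 1 of the 72 peak lists, placed by the share of protein-coding genes (horizontal axis, %) and of the 31 snoRNA host genes (vertical axis, %) with a peak within 1 kb of a TSS, and the dashed line marks equal shares. ZNF22 replicate 1 (24% and 41.9%) and APEX2 replicate 2 (16.4% and 29.0%) lie above the line, and ZNF22 replicate 2 (6.66% and 0%) lies on the axis.

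Many host genes start beside a protein-coding gene. For 13 of the 31, a TSS of a protein-coding gene lay within 1 kb of a TSS of the host, and 12 of these (92.3%) had a peak in at least 1 list and 4 (30.8%) in both replicates of a ZFP. Of the other 18 host genes, 14 (77.8%) had a peak in at least 1 list and 2 (11.1%) in both replicates. These 14 include SNHG6, SNHG17 and SNHG27, which had peaks in the second lists of TRIM55 and ZMAT5 alone. The same division over all lncRNA genes gave 57.5% and 17.0% with a shared start, and 9.51% and 1.64% without. Without a shared start, the median number of TSSs was 10.5 for host genes and 1.00 for lncRNA genes. Such lncRNA genes with 5 or more TSSs reached 21.5% and 5.37%. Host genes without a shared start were thus called at a higher rate than all lncRNA genes without one in any list, and the count in both replicates rests on 2 host genes, SNHG12 and DANCR, of which DANCR alone is called in both replicates with the 5′ end as the only TSS.

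The pairs were GAS5 and ZBTB37, SNHG1 and SLC3A2, SNHG3 and RCC1, SNHG4 and MATR3, SNHG9 and RPS2, SNHG10 and GLRX5, SNHG18 and SEMA5A, SNHG19 and TRAF7, SNHG20 and SEC14L1, SNHG22 and ACAA2, SNHG31 and BARD1, and SNHG5 and SNHG28 with ENSG00000271793 and ENSG00000256029. Every list that called one of these host genes also called its neighbour, which the closeness of the start sites largely fixes. The neighbour was called in more lists than the host for SLC3A2 (20 against 5), RPS2 (11 against 5), SEC14L1 (9 against 2), RCC1 (8 against 1), TRAF7 (3 against 2) and ENSG00000271793 (6 against 5). Of 49 peaks at shared starts, 28 had a summit nearer to a TSS of the neighbour than to one of the host. At these genes the calls cannot be assigned to the host rather than to the protein-coding gene.

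**Figure D3:**
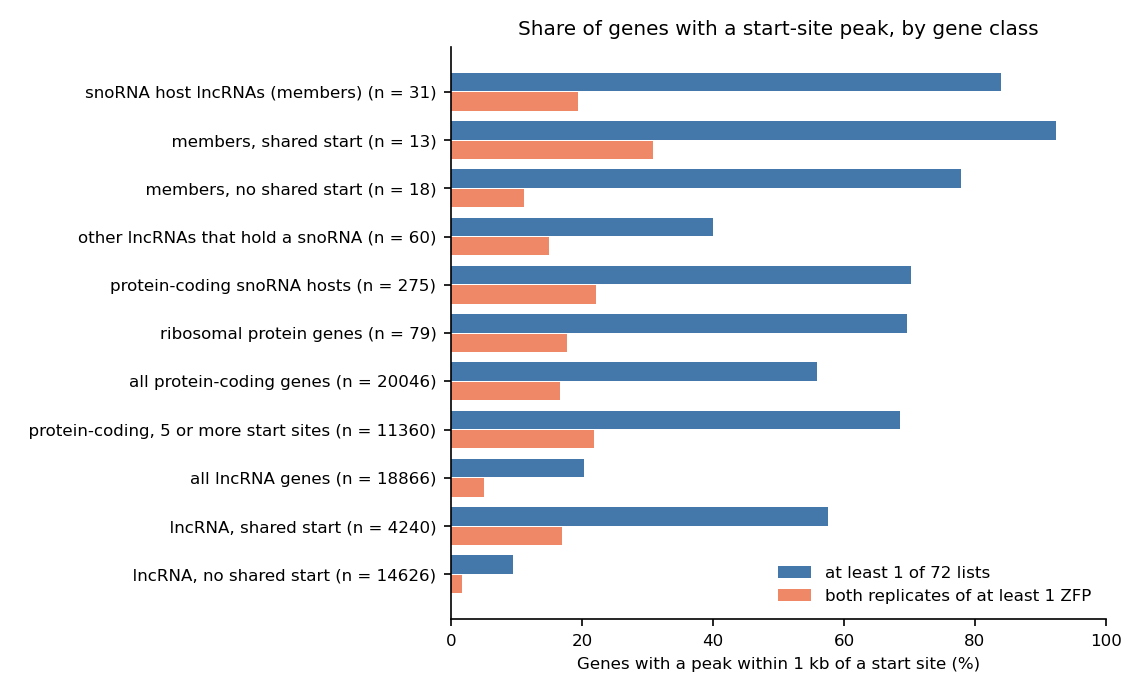
Bars give the percentage of genes in each class with a peak within 1 kb of a TSS in at least 1 of the 72 lists (blue) and in both replicates of at least 1 ZFP (orange), with the number of genes in brackets. The 31 snoRNA host lncRNAs reach 83.9% and 19.4%, and lncRNA genes without a protein-coding start nearby reach 9.51% and 1.64%.

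The number of annotated start sites also differed between the classes, with a median of 10.0 TSSs for a host gene, 5.00 for a protein-coding gene and 1.00 for an lncRNA gene. More start sites give a gene more sequence in which a peak can count. Of protein-coding genes with 5 or more TSSs 68.6% were called in any list, and of lncRNA genes with 5 or more 36.1%. Among the host genes 21 of 25 with 5 or more TSSs (84.0%) and 5 of 6 with fewer (83.3%) were called. The 21 include SNHG6, SNHG17 and SNHG27, which were called only in the second lists of TRIM55 and ZMAT5, at folds of 1.99 to 2.00. In both replicates of a ZFP, 20% of the host genes with 5 or more TSSs were called, beside 21.8% of such protein-coding genes and 10.8% of such lncRNA genes. When only the 5′ end of each gene was used, the host share stood 26.7 percentage points above the protein-coding share, compared with 28.1 points with all TSSs.

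Other carriers of snoRNAs were compared in the same way. Of 275 protein-coding genes that hold a snoRNA on their strand 70.2% were called in any list and 22.2% in both replicates of a ZFP, and of 60 lncRNA genes that hold a snoRNA but carry none of the member symbols 40.0% and 15% were called. By the kind of cargo, 14 of 15 members with an H/ACA box snoRNA (93.3%) and 10 of 14 with a C/D box snoRNA (71.4%) were called in any list, with GAS5 and other mixed hosts in both sets. SNHG17 and SNHG27 in the H/ACA set and SNHG6 in the C/D set were called only in the second lists of TRIM55 and ZMAT5. The difference between these sets was not tested.

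The protein genes that serve snoRNAs and their hosts were counted from lists written for this work. Of 8 genes for core snoRNP proteins, among them fibrillarin (FBL) and dyskerin (DKC1), 5 were called in any list and none in both replicates of a ZFP. Of 12 snoRNP assembly factors 10 were called and 2 in both replicates. PIH1D1, a subunit of the R2TP chaperone complex that helps to build snoRNPs, was called in 13 lists, in both replicates of APEX2, G2E3 and GIN1, with a highest fold of 9.25. Of 14 NMD factors 10 were called and 4 in both replicates. In any list the shares of these small sets were 62.5%, 83.3% and 71.4%, in that order. They stood beside 55.8% of all protein-coding genes and 68.6% of those with 5 or more TSSs. In both replicates they were 0%, 16.7% and 28.6%, beside 16.7% and 21.8%.

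Ribosomal protein genes, whose mRNAs share with several snoRNA hosts a start of C followed by pyrimidines, were called in any list for 69.6% of 79 genes, below the 83.9% of the host genes, and in both replicates for 17.7%, beside 19.4%. A C followed by 4 pyrimidines at the canonical TSS was found in 3 of the 31 host genes (9.68%), namely GAS5, SNHG12 and SNHG29. It was found in 75.9% of the ribosomal protein genes, 4.58% of all protein-coding genes and 2.79% of all lncRNA genes. At any of the annotated TSSs, 18 host genes had such a start. This count was not made for the other classes, whose genes have fewer TSSs, so it cannot be set beside the shares above.

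The 83 peaks within 1 kb of a host gene's TSS were alike in size to those of protein-coding genes. Their median fold was 4.96 with a range from 1.99 to 8.36, and the median over 43019 peaks within 1 kb of a protein-coding TSS was 5.08. The median width was 276 bp at host genes and 277 bp at protein-coding genes, and the summit lay a median of 123 bp and 134 bp from the nearest TSS. A TSS was covered by 53.0% of the host gene peaks and by 53.1% of the protein-coding ones. The summit was upstream of the nearest host TSS in 54 of the 83 peaks, and 58 summits lay within 250 bp of a TSS on either side.

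**Figure D4:**
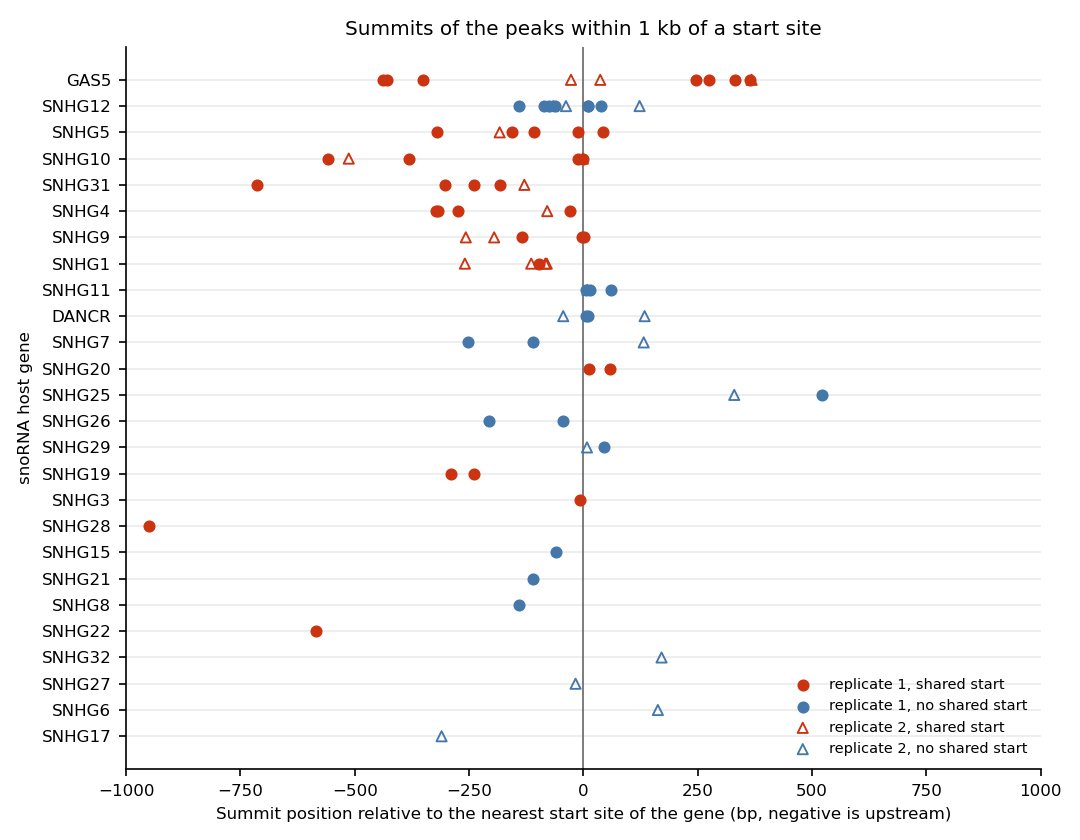
Each symbol is the summit of 1 of the 83 peaks, at its signed distance in bp from the nearest TSS of the host gene (negative is upstream), with 1 row per gene, circles for replicate 1, triangles for replicate 2, red for host genes that share a start with a protein-coding gene and blue for the others. The summits of SNHG12, SNHG11 and DANCR, which have 13, 33 and 11 annotated TSSs, lie close to 0, and those of SNHG4, SNHG31 and SNHG1 lie upstream.

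Promoters of 27 of the 31 host genes were matched by symbol in the RefSeq table for GRCh38.p14, which gives 250 bases before and 50 bases after a start. The median GC content was 62.3% in the host promoters, 62.3% in protein-coding and 54.0% in lncRNA promoters, with a median of 25, 21.0 and 7 CpG dinucleotides. The GC box word GGGCGG was in 19 host promoters (70.4%), in 45% of the 35116 promoters of the table and in 56.8% of its 21613 protein-coding promoters. The NRF1 word GCGCATGC was in 4 (14.8%), those of SNHG1, SNHG3, SNHG8 and SNHG27, beside 3.05% of all and 3.73% of protein-coding promoters. In base composition the host promoters were closer to those of protein-coding genes than to those of other lncRNAs.

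The CCAAT word was in 8 host promoters (29.6%, beside 34.6% of all), the ETS word CCGGAAG in 2 (7.41%, beside 10.3%), the E-box CACGTG in 2 (7.41%, beside 7.26%) and the TATA word TATAAA in 4 (14.8%, beside 11.5%). The word TCTCGCGA was in 1 (3.70%, beside 1.15%), that of SNHG16, which was called in no list. The YY1 word AAGATGGC was in none of them and in 2.89% of all promoters. Both strands were searched, no word contains another, and a match is a description of the letters, not a binding site. The 22 host promoters with a call in any list had a median GC content of 62.8%, and the 5 without had 61.7%.

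SNHG3 showed a pattern of its own. It was called at its start in 1 list, ZNF22 replicate 1, at a fold of 4.94, in the region shared with RCC1. Inside the gene and over 1 kb from its start sites, however, 14 peaks were found in 12 lists, and 13 peaks in 11 lists lay on its snoRNA genes SNORA73A and SNORA73B. These encode the U17 snoRNA, an abundant H/ACA box RNA needed for the cleavage of pre-ribosomal RNA. Of 6 host genes with a peak in the body, the other 5 had between 1 and 4, and of the snoRNAs of other members only SNORD74 of GAS5 (1 list) and SNORA50C of SNHG25 (2 lists) lay under a peak.

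The genes of both U17 copies are printed because the peaks follow their ends. They are given in hg38 along the plus strand, 5′ to 3′, with the ACA box in capitals, which lies 3 bases before the end of each.
SNORA73A, chr1:28507366-28507571: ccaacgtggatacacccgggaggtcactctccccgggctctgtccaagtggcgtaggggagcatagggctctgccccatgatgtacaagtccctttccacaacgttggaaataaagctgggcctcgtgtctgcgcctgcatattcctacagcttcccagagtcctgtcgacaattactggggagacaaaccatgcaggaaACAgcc
SNORA73B, chr1:28508559-28508762: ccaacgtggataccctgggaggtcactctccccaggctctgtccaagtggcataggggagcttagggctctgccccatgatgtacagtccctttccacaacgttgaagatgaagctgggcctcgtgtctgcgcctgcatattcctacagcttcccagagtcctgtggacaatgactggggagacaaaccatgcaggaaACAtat
The genes measure 206 and 204 bp and differ by 14 single-base substitutions, insertions and deletions, so short reads may be shared between them. Other near-identical copies in the genome were not searched.

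On SNORA73B the folds were 24.94 and 12.99 in CISD1 replicates 1 and 2, 16.57 and 10.66 in GIN1 replicates 1 and 2, 16.62 in ZMAT3 replicate 1, 16.39 in MAZ replicate 1, 12.96 in MBNL1 replicate 1, 11.54 in WBP4 replicate 1, 10.33 in CNBP replicate 1 and 4.0 in TRIM55 replicate 2. On SNORA73A they were 12.38 in GIN1 replicate 1, 7.93 in APEX2 replicate 1 and 6.54 in MAZ replicate 1. MAZ, MBNL1 and WBP4 called no host gene at a start site and are named here after their values were seen. Apart from TRIM55 replicate 2, all folds on SNORA73B were higher than the highest start-site fold of any host gene, 8.36. In 10 of the 11 lists the fold of the SNORA73 peaks was above the median fold of the list, and the exception was MBNL1 replicate 1, whose list had a median of 15.88.

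All 13 peaks ended shortly after the snoRNA gene, 10 to 20 bp beyond its last base, and without TRIM55 replicate 2 the range was 10 to 12 bp. Their first base lay between 4 bp before and 88 bp after the first base of the snoRNA gene. The peaks covered from 57.3% to the whole of the snoRNA gene. The downstream boundary thus followed the end of the small RNA gene in every list, while the upstream boundary varied. The source of these fragments was not tested.

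**Figure D5:**
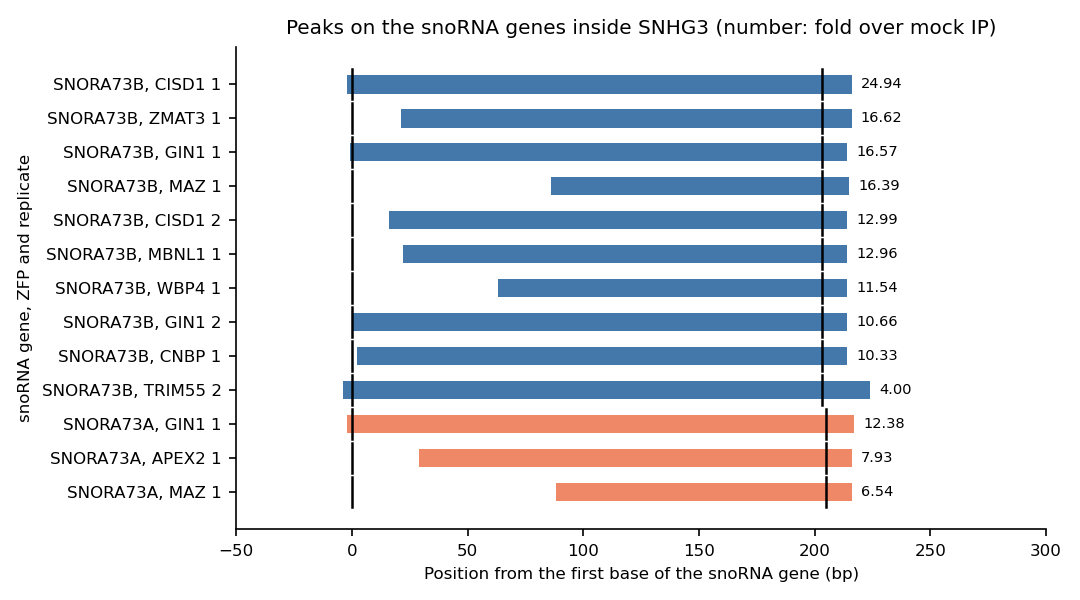
Each bar is a peak on SNORA73B (blue) or SNORA73A (orange), drawn from its first to its last base relative to the first base of the snoRNA gene (bp), with the fold over mock IP beside it and black ticks at both ends of the snoRNA gene. All 13 bars end 10 to 20 bp after the gene, while their starts vary from 4 bp before to 88 bp after its first base.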

How the data were processed

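The authors trimmed the Cut&Run reads with Trimmomatic 0.36, aligned them to hg38 with bowtie2 2.3.5.1, keeping fragments of 10 to 700 bp, took out duplicates with Picard, and ran MACS2 2.2.7.1 on each library against the mock IP of its batch to call narrow peaks at an FDR of 0.05. Each deposited list gives for a peak a score, the fold (the ratio over mock IP at the summit), the −log10 p-value and the −log10 q-value, all as the authors' caller wrote them. The depth of the libraries is not in the lists, so list length is the only guide to precision, and folds were described without a test. Where folds of different lists stand side by side, they were not brought to a common scale.

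Peaks were placed on GENCODE 44 with Python 3.11.15, numpy 2.4.6, pysam 0.24.0 and samtools 1.23.1. All 92 contigs with peaks fitted the reference. A gene was called when the edge of a peak lay within 1 kb of any TSS. The lists of both replicates were joined per ZFP, as in the study's methods. The snoRNAs of a host gene were those inside it in GENCODE 44 or in RefSeq. Plots were drawn with matplotlib 3.10.9. The procedures were tested on simulated data.

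The host genes, the gene lists and the comparisons were chosen with earlier results of these data known, so counts are given as descriptions, beside the same counts over all genes, with no p-values. Fold and position in each list are given for the 12 host genes called in the most lists, with ties settled by the highest fold, and for GAS5, SNHG1, DANCR and EPB41L4A-AS1. ZFPs are named when they are among the 10 with the most host genes or call one in both replicates, and snoRNP and NMD genes when both replicates of at least 3 ZFPs call them. 1 gene that the last rule takes is not reported here. Alternatives were other distances, TSS sets and q-values, each replicate left out, and overlap between replicates. Others were the 30 ZFPs with a Cut&Run count in the study's summary table, no U2AF1, no shared starts and only hosts with an annotated snoRNA. Leaving out the second lists of TRIM55 and ZMAT5, adding SNHG33 and describing the SNORA73 peaks were chosen after seeing the data.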

Additional observations from a re-analysis of the deposited data

How the results depend on the processing

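The share of host genes called was above the protein-coding and the lncRNA share under every alternative run. With overlap between replicates by 1 bp, however, the lead over protein-coding genes was smaller than 1 host gene (3.23%). Leaving out U2AF1 and keeping only hosts with an annotated snoRNA could not change the host share. The U2AF1 lists called no host gene, and all 31 host genes hold an annotated snoRNA. The value of 83.9% fell to 54.8% when the peak had to cover a TSS, to 64.5% and 48.4% at q-values of at most 0.01 and 0.001, and to 16.1% when a peak had to overlap one of the other replicate, by 1 bp or by 50%. Without a replicate it was 54.8% to 71.0%. The lead over protein-coding genes, 28.1 percentage points, was 19.4 to 20 without a replicate. It was 15.3 with the TSS covered, 27.4 within 500 bp, 25.5 within 2 kb and 28.6 from the summit. It was 26.7 with the 5′ end as the only TSS, 21.7 with basic transcripts, and 14.3 and 8.56 at the stricter q-values. With overlap by 1 bp and 50% it was 2.3 and 3.73. It was 19.7 with the ZFPs that have a Cut&Run count in the study's summary table, and 27.5 without shared starts. Without the second lists of TRIM55 and ZMAT5 it was 19.1, and with SNHG33 it was 28.6. The lead over lncRNA genes, 63.6 points, was 42.9 to 53.1 without a replicate. It was 45.2 with the TSS covered, 55.0 with the 5′ end, 54.5 with basic transcripts, and 47.0 and 35.1 at the stricter q-values. With overlap it was 11.7 and 12.2. It was 54.7 with the ZFPs that have a Cut&Run count in that table, and 54.4 without the second lists of TRIM55 and ZMAT5. The 6 host genes called in both replicates became 2 without shared starts (DANCR and SNHG12) and 3 at a q-value of at most 0.001 (DANCR, SNHG9 and SNHG12). With the 5′ end as the only TSS they were 5, without SNHG12. The 18 ZFPs with a host gene became 3 with overlap by 1 bp or 50%, and 8 to 15 without a replicate. Most of these alternatives remove peaks, lists or genes by construction, while the 2 kb limit and SNHG33 add some, and the cause of each change was not tested. A count in both replicates cannot be had without a replicate. Lists of few peaks limit what can be seen, and a gene with no peak in a short list may still be bound. No paired analysis was possible because the results are counts from no test.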

Other observations

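Of 991 snoRNA and scaRNA entries in GENCODE 44, 27 lay under a peak in any list, 4 of them among the 142 entries inside host genes and 23 among the other 849. SNORD3A, a U3 snoRNA gene with a promoter of its own, was covered in 22 lists, and SNORD3B-1, SNORD3B-2 and SNORD3C were covered in 15 each. These U3 genes are near-identical copies, so reads may be shared among them. SNORA73B of SNHG3 followed with 10 lists, SNORA10 with 6, and SNORD118, the U8 gene, and SCARNA2 with 5 each. Both U3 and U17 act in the early cleavage of pre-ribosomal RNA. SNHG33, listed as LINC00888, had a start-site peak in 1 list, ZC3H3 replicate 1, at a fold of 5.97, and with it 27 of 32 host genes were called.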
